A study of Homo sapiens with 24 samples.

Results

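Metformin at 10 mM was compared with no drug in A549 cells that had been transduced with a blank vector lentivirus. A549 is an established human lung cancer line. It has lost the function of the AMPK kinase STK11 (LKB1) and of the NRF2 inhibitor KEAP1. Polyadenylated RNA was sequenced from 3 libraries without metformin and 3 libraries with it, all from vector cells, so that both groups carry the vector and differ by the drug. These are 6 of the 24 samples of the series. The other A549 samples (3 untreated and 3 metformin-treated libraries of cells given a GPD1 lentivirus) entered the same statistical model and serve below as a second population under the same drug. The 12 samples of the kidney cancer line 786-O were not analysed here. The study asked how GPD1, the cytosolic glycerol-3-phosphate dehydrogenase, acts on cancer cell growth with and without metformin. The labels give the dose but not the length of exposure, and a single line and a single vector population stand behind these values. Values are FPKM, fragments scaled to gene length and library depth. Every gene whose mean over the 12 A549 libraries reached 1 FPKM was a member, which made 12607 of 58302 genes in the table.

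Metformin is a biguanide used against type 2 diabetes. It enters mitochondria and slows complex I of the respiratory chain, which passes electrons from NADH to ubiquinone. Cells then make less ATP by respiration, regenerate less NAD+ and lean on glycolysis, and low energy charge and mitochondrial stress reach the nucleus through AMPK, mTORC1 and the kinases that phosphorylate eIF2 alpha. Most complexes of oxidative phosphorylation hold subunits translated inside mitochondria from a small circular genome that is copied and transcribed by its own enzymes.

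The steps between low values corresponded to 13300000 to 18000000 counted reads or fragments per vector library, with overlapping ranges in both groups. Untreated libraries listed 26249 to 26704 genes above 0 and treated libraries 24688 to 25099. The first principal component of the 6 libraries held 87.9% of the variance and parted treated from untreated cells. GPD1 stood at 0.0873, 0.103 and 0.0408 FPKM without the drug and 0.0662, 0.0702 and 0.0248 FPKM with it, far below its 15.8 FPKM in untreated GPD1-transduced cells, as the labels say. The epithelial keratins KRT8 and KRT18 were at 64.4 to 112 FPKM without the drug and CDH1 at 9.24 to 9.29 FPKM. KRT19 was listed at 0 in the untreated libraries and reached at most 0.0390 FPKM with the drug (whether this comes from the quantification was not tested), and EPCAM stayed under 0.5 FPKM. The enzymes AKR1B10 and ALDH1A1 were at 1359.7 to 2769 FPKM without the drug, but AKR1C1 of the same list at 36.2 to 37.5 FPKM. The 3 kidney markers summed to 4.14 to 4.44 FPKM without the drug and 2.97 to 3.63 FPKM with it. Of the 5 alveolar type II markers, SFTPA1 was at 0 and the list summed to 0.0401 to 0.295 FPKM without the drug and 0.0868 to 0.175 FPKM with it. The 4 fibroblast markers summed to 5.09 to 5.43 FPKM without the drug and 2.25 to 2.73 FPKM with it, nearly all of it COL1A1, and the 3 leukocyte markers to 2.00 to 2.70 and 7.34 to 9.11 FPKM, nearly all of it CD68. DCN of fibroblasts, CD3E of T cells and VWF and CDH5 of endothelium were at 0 in all 6 libraries. Separate cultures are not named in the labels for libraries of the same group, so each p-value measures spread among libraries that may be technical.

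Metformin changed most of the transcriptome. Of 12607 tested genes 74.6% were called (limma, adjusted p under 0.05), 31.3% higher and 43.3% lower, and 76.6% had no overlap between the 3 treated and the 3 untreated libraries. A log2 change of at least 1 was called for 8.56% in the higher and 11.4% in the lower direction. These shares are the background against which every count below is read. In mean FPKM, 1517 called genes were at least 2-fold higher and 2400 at least 2-fold lower in mean FPKM, 123 and 168 at least 8-fold, and 45 and 58 at least 16-fold. The median log2 fold change of all tested genes was -0.10. All log2 values are on the log2(FPKM + 1) scale, which understates changes of weak genes, while folds are ratios of mean FPKM. The balance of directions depended on the scaling. The median of all genes moved to 0.02 under median-ratio scaling, to -0.06 under upper-quartile scaling and to -0.34 when mitochondrial genes were left out of the totals. Of the called genes 42.0% were higher as deposited, and 50.5%, 44.8% and 27.8% under these scalings. Where a list's median changed sign over these 4 scalings, which was so for 18 of the 62 lists, the range of the median is given in brackets. The range of the counts is given for many lists, and counts given without it may also move with the scaling. Where a gene is given only by its means, it was called (limma, adjusted p at most 0.0471) and its 3 treated libraries did not overlap the 3 untreated ones. Over the 278 called genes named in the text the SD within a group had a median of 5.50% of the mean.

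The phosphatase DUSP5, which removes phosphate from ERK in the nucleus, had the largest rise among the protein-coding genes named by rule. DUSP5 (ENSG00000138166, chromosome 10, GRCh38 positions 110497838 to 110511544) was at 16.5, 16.9 and 15.9 FPKM without the drug and 418, 443 and 469 FPKM with it. GDF15, a cytokine released by cells under mitochondrial or ER stress, was at 34.2, 32.6 and 37.4 FPKM without the drug and 742, 705 and 626 FPKM with it. The survival kinase PIM3 was at 14.2, 15.3 and 15.8 FPKM without the drug and 221, 251 and 294 FPKM with it. In each of these 3 genes the lowest treated library lay more than 10 times above the highest untreated library, and the 3 libraries of a group lay close together. On the log2 scale DUSP5 rose by 4.67, GDF15 by 4.27 and PIM3 by 3.98.

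At the other end stood a pair of immediate-early transcription factors. EGR1 (ENSG00000120738, chromosome 5, GRCh38 positions 138465490 to 138469315) was at 56.4, 53.8 and 57.7 FPKM without the drug and 2.83, 2.25 and 2.37 FPKM with it, and FOS was at 22.1, 21.6 and 25.6 FPKM without the drug and 0.538, 0.477 and 0.816 FPKM with it. SPC25, a subunit of the kinetochore complex that binds microtubules, was at 13.3, 12.1 and 13.4 FPKM without the drug and 0.740, 0.560 and 0.312 FPKM with it. The centromere protein CENPF was at 36.8, 38.4 and 37.3 FPKM without the drug and 3.83, 3.52 and 4.09 FPKM with it, and no treated library of these 4 genes came near the untreated ones. The fall of EGR1 was 22.6-fold in mean FPKM (log2 fold change -4.04, SE 0.08; limma, adjusted p = 3.9e-11).

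**Figure D1:**
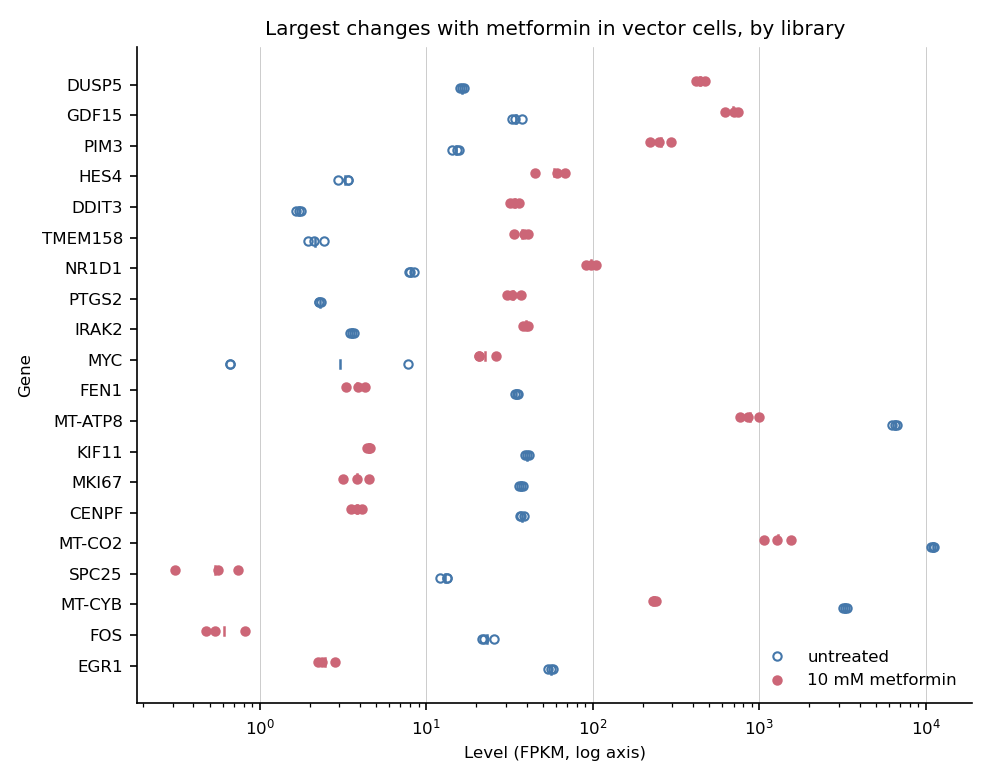
Level in FPKM on a log axis (x) of the 10 protein-coding genes with the largest rise and the 10 with the largest fall (y) in vector cells, with open blue circles for the 3 untreated libraries, filled red circles for the 3 libraries with 10 mM metformin and short lines for group means. Groups are separate for all 20 genes, and MYC is the gene with a stray untreated library (0.667, 0.665 and 7.80 FPKM).

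The mitochondrial genome gave the largest shift in the make-up of the libraries. Its transcripts held 32.9% to 33.2% of all FPKM without metformin and 13.7% to 14.9% with it. This fall was not shared by all its products. The messenger RNAs of its 13 protein-coding genes went from 25.1% ± 0.248 to 7.37% ± 0.466 of the total (mean ± SD, n = 3 each). The tRNAs went from 3.64% ± 0.0688 to 1.12% ± 0.261. The ribosomal RNAs went the other way, from 4.32% ± 0.129 to 5.68% ± 0.159, with no overlap. With 3 libraries against 3, an exact permutation test (two-sided) cannot go below p = 0.10, and each of these shares is at that limit.

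MT-RNR2, the large ribosomal RNA of the mitochondrion, was at 11643, 11838 and 11154 FPKM without the drug and 14203, 14409.6 and 14987 FPKM with it (log2 fold change 0.33, SE 0.05; limma, adjusted p = 5.1e-05), and MT-RNR1, the small one, rose from 1122 to 1424 FPKM. Both kept this direction in the other scalings, but with mitochondrial genes left out of the totals the rise shrank to 0.03 for MT-RNR2 and 0.05 for MT-RNR1 and was not called (limma, adjusted p = 0.497 and 0.568). The call of MT-RNR2 was also lost with no filter on low values (limma, adjusted p = 0.0724). All 13 protein-coding genes of the mitochondrion fell (median log2 fold change -2.46), to very unequal degrees. MT-CO2, a core subunit of cytochrome c oxidase, was at 11059, 10779.7 and 11192 FPKM without the drug and 1550.4, 1283 and 1068 FPKM with it. MT-CYB, the core of complex III, was at 3347, 3197 and 3279 FPKM without the drug and 240.1, 229 and 233 FPKM with it, which made it the most reduced messenger RNA at 14.0-fold, although its adjusted p was 0.0471 (limma) with an SE of 1.57. That SE is shared with the GPD1 cells, where treated libraries listed MT-CYB at 191, 0 and 0 FPKM. The call was lost with each vector library left out in turn and with each untreated GPD1 library left out (limma, adjusted p 0.0596 to 0.0916), while the change stayed between -3.82 and -3.78. Whether a listed 0 for a gene this abundant comes from the cells or from the quantification was not tested. MT-CO3 fell from 9754 to 1384 FPKM, MT-ATP8 from 6478 to 873 FPKM, MT-ATP6 from 1892 to 343 FPKM and MT-ND2 from 2700.4 to 510.0 FPKM.

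The complex I subunits MT-ND4 and MT-ND4L, which share a bicistronic messenger RNA, changed least. MT-ND4 was at 5453, 5296 and 5427 FPKM without the drug and 2974, 2848 and 2975 FPKM with it, a fall of 1.84-fold, and MT-ND4L fell from 6233 to 3319 FPKM. MT-CO1, the most abundant messenger RNA of the mitochondrion, fell from 18052 to 7926 FPKM. MT-ND1, which lies next to the rRNA genes on the same strand, fell from 2412 to 636 FPKM, and MT-ND6, which is read from the opposite strand, fell from 2015 to 545 FPKM. The falls did not follow the order of the genes after the rRNAs, as the smallest belonged to genes in the middle of the array.

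Among the 22 mitochondrial tRNAs, 21 fell and MT-TL1 was not called, at 382, 388 and 379 FPKM without the drug and 419, 337 and 249 FPKM with it. The 3 tRNA genes that follow MT-ND4 in a row were almost lost. MT-TH was at 277, 270.4 and 279 FPKM without the drug and 1.77, 2.42 and 0.997 FPKM with it, MT-TS2 at 2.07, 2.83 and 1.17 FPKM with the drug against 349.7, 323 and 339.5 FPKM without it, and MT-TL2 at 4.31, 3.13 and 0.969 FPKM against 408, 353 and 369 FPKM. MT-TG and MT-TR, which flank MT-ND3, fell from 252 to 2.69 FPKM and from 236 to 6.31 FPKM. The tRNA genes with the highest untreated means, 1347 to 2366 FPKM, lie on the opposite strand and fell less, by 2.88-fold to 3.86-fold. MT-TM went only from 41.7 to 23.3 FPKM and MT-TF from 136 to 96.8 FPKM, and the call of MT-TF (limma, adjusted p = 0.0417) was lost in most other settings. MT-TL1 was called lower with mitochondrial genes left out of the totals (-0.52; limma, adjusted p = 0.00722), with the length trend removed and without the first treated library. A polyadenylated library catches a tRNA mostly as part of a longer transcript, and short genes have large FPKM per read, so these values are not amounts of mature tRNA.

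**Figure D2:**
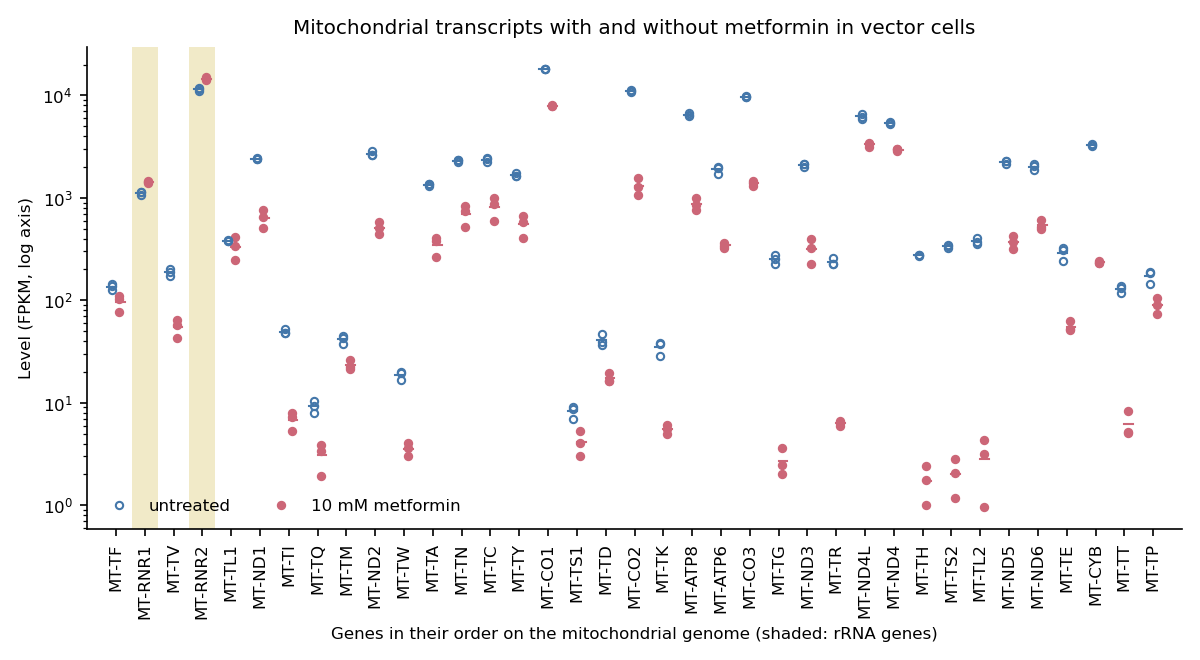
Level in FPKM on a log axis (y) of the 37 genes of the mitochondrial genome in their order along it (x), with open blue circles for untreated and filled red circles for metformin-treated vector libraries, short lines for group means and shading over the rRNA genes. All red points lie above all blue ones for MT-RNR1 and MT-RNR2 alone, the smallest falls among messenger RNAs are at MT-ND4 and MT-ND4L, and MT-TH, MT-TS2 and MT-TL2 fall to under 5 FPKM.

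Nuclear genes of the same machinery moved little. In complex I, 10 of its 37 tested nuclear subunits were higher and 11 lower (median -0.25 to 0.14, with 3 to 16 higher and 5 to 20 lower, over the 4 scalings). NDUFC2 and NDUFS1, an iron-sulfur subunit, fell from 13.5 to 6.64 FPKM and from 7.97 to 3.93 FPKM, and NDUFV2 rose from 10.5 to 16.9 FPKM. Among 39 subunits of complexes II to V, 19 rose and 10 fell (median -0.16 to 0.27, with 7 to 23 higher and 5 to 20 lower, over the 4 scalings). UQCRB of complex III and COX7A2 of complex IV rose from 6.32 to 11.1 FPKM and from 16 to 24.7 FPKM, and the membrane anchor SDHC of complex II fell from 7.02 to 3.60 FPKM. No gene of either list reached a change of 1 on the log2(FPKM + 1) scale, although NDUFC2 and NDUFS1 each fell 2.03-fold in mean FPKM.

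Of 31 factors that copy, transcribe and process mitochondrial DNA and RNA, 8 rose and 16 fell (6 to 10 higher and 16 to 21 lower over the 4 scalings). The mitochondrial RNA polymerase POLRMT rose from 20 to 30.9 FPKM and its partner TFB2M, which opens the promoter, from 15.1 to 25.4 FPKM, while the DNA-packaging factor TFAM fell from 12.1 to 9.34 FPKM. TRMT10C, a subunit of the enzyme that frees tRNAs from the long precursor at their 5′ end, fell from 11.9 to 4.75 FPKM, and the exonuclease MGME1 from 16.2 to 6.90 FPKM. The nuclear receptor ESRRA, a regulator of respiratory genes, rose from 6.04 to 11.6 FPKM. The mitochondrial ribosomal proteins split, with 15 higher and 34 lower of 79 (10 to 27 higher and 24 to 52 lower over the 4 scalings). Their share of lower genes, 43.0%, was near the 43.3% of all genes. MRPL16 fell from 15.1 to 6.01 FPKM and MRPL44 rose from 23.7 to 55.2 FPKM. MRPL34 rose from 5.76 to 14.5 FPKM with an SE of 0.45, and lost its call without the second untreated library (0.85; limma, adjusted p = 0.0800).

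Mitochondrial chaperones and proteases were lower in 11 and higher in 4 of 19 (1 to 5 higher and 7 to 15 lower over the 4 scalings), and the smallest count of lower genes is near the share of all genes under that scaling. The protease subunit CLPX fell from 11.7 to 5.64 FPKM, the fusion proteins MFN1 from 5.16 to 2.14 FPKM and OPA1 from 4.46 to 2.08 FPKM, and GRPEL1, a cofactor of the import chaperone, rose from 4.0 to 6.54 FPKM. TCA cycle and pyruvate entry genes were lower in 18 and higher in 5 of 27 (1 to 6 higher and 17 to 22 lower over the 4 scalings). OGDH, the first component of the 2-oxoglutarate dehydrogenase complex, fell from 12.6 to 4.27 FPKM, and DLD, the subunit that hands its electrons to NAD+, fell from 11.4 to 4.67 FPKM. Glutamate dehydrogenase GLUD1 rose from 49.7 to 78.2 FPKM.

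Genes of cell division fell together. All 45 tested genes of mitosis and the kinetochore were lower, 39 of them by at least 1 log2 unit, with a median of -1.51 against -0.10 for all genes, and their summed level went from 989.7 to 315 FPKM. KIF11, the motor that pushes spindle poles apart, was at 40.1, 41.4 and 39.1 FPKM without the drug and 4.55, 4.60 and 4.44 FPKM with it (log2 fold change -2.90, SE 0.05; limma, adjusted p = 2.1e-11). The proliferation antigen MKI67 was at 37.2, 38.3 and 36.3 FPKM without the drug and 4.56, 3.82 and 3.15 FPKM with it. KIF20A, a motor of the midzone, fell from 20 to 2.15 FPKM, the kinases PLK1 and AURKB from 11.3 to 2.98 FPKM and from 9.40 to 3.96 FPKM, and cyclin B1 (CCNB1) from 44.2 to 13.2 FPKM. TOP2A, named outside the rule, fell from 158 to 55.0 FPKM. In bulk RNA, fewer dividing cells and less of these RNAs per cell cannot be told apart.

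DNA replication genes were lower in 46 of 47, at a median of -1.20. FEN1, which trims Okazaki fragments, was at 35.5, 34.9 and 34.1 FPKM without the drug and 4.27, 3.88 and 3.30 FPKM with it. MCM3 and MCM2, subunits of the replicative helicase, fell from 25.3 to 4.46 FPKM and from 20.7 to 7.94 FPKM. GINS1 of the same helicase fell from 22.1 to 3.19 FPKM, the dNTP enzyme RRM2 from 14.9 to 2.28 FPKM, and the clamp PCNA from 242 to 106 FPKM. The exception was the origin licensing factor CDT1, which rose from 18.5 to 25.2 FPKM, a call that was lost when mitochondrial genes were left out of the totals (0.14; limma, adjusted p = 0.0893). Homologous recombination and crosslink repair genes were lower in 29 of 32 tested. XRCC2 fell from 5.68 to 0.295 FPKM and BRCA1 from 2.84 to 0.192 FPKM, and FANCE rose from 4.08 to 7.44 FPKM.

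Upstream of these genes, 11 of 15 tested G1 regulators fell and 3 rose. CDK6, a kinase of the G1 phase, was at 20.9, 21.8 and 21.4 FPKM without the drug and 5.30, 4.58 and 4.10 FPKM with it, and its partner cyclin D1 (CCND1) fell from 40.9 to 20 FPKM. The inhibitor CDKN2C fell from 10.1 to 0.903 FPKM, whereas CDKN1A (p21) was at 26.3, 26.7 and 28.2 FPKM without the drug and 111, 109.5 and 87.0 FPKM with it and CDKN1B (p27) rose from 15.5 to 25.7 FPKM. In the E2F and MuvB list 11 of 16 fell. E2F8 fell from 5.32 to 0.162 FPKM, E2F1 from 31.7 to 15.7 FPKM and MYBL2, the activator of late cell cycle genes, from 52.1 to 12.4 FPKM.

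Promoter windows of a few fallen cell cycle genes are shown because these genes were picked for holding an element known from cell cycle promoters. Promoter sequences were taken from RefSeq (GRCh38.p14) for 8107 of 10141 tested protein-coding genes of the nucleus, and the 250 bases before the start site were searched on both strands. The cell cycle homology region, TTTGAA, was present in 21 of 38 mitosis promoters (55.3%), in 1 of 40 replication promoters, in 12% of genes lower by at least 1 log2 unit and in 7.81% of all tested promoters. In the windows below the element is in capitals, read on the gene's strand, so TTCAAA is the same element on the other strand. KIF11 (chr10:92593070-92593129 on the plus strand), MKI67 (chr10:128126424-128126483 on the minus strand) and PLK1 (chr16:23678829-23678888 on the plus strand) have it within the last 60 bases before the start.
KIF11: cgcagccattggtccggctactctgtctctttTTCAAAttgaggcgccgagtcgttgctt
MKI67: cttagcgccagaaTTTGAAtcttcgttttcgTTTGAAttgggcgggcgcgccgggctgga
PLK1: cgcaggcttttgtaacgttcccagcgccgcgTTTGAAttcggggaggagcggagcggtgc
The E2F letters TTCCCGCC stood in 20% of 40 replication promoters, in 4.43% of genes lower by at least 1 log2 unit and in 4.82% of all tested promoters. They are in capitals, as GGCGGGAA on the gene's strand, for MCM3 (chr6:52284743-52284802 on the minus strand) and PCNA (chr20:5126649-5126708 on the minus strand).
MCM3: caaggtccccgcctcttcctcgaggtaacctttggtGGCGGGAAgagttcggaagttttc
PCNA: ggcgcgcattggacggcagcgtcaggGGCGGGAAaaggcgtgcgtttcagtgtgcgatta
CCAAT was found in 71.1% of mitosis and 62.5% of replication promoters against 35.4% of all, but more often in lists that did not fall, at 82.6% of ER stress and 77.8% of cholesterol promoters. A match is a string of letters and no measurement of binding.

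Tubulins and stathmin were lower in 11 of 14 and higher in none. TUBB4B was at 178, 176 and 176 FPKM without the drug and 30.0, 31.1 and 28.7 FPKM with it, and stathmin (STMN1), which binds tubulin dimers, fell from 23.2 to 4.54 FPKM. Tubulin genes have near-identical copies, and how reads on them were assigned is not given. Among chromatin genes 27 of 47 fell and 11 rose (6 to 16 higher and 26 to 34 lower over the 4 scalings). UHRF1, which guides maintenance methylation, fell from 8.96 to 0.616 FPKM, lamin B1 (LMNB1) from 12.7 to 1.31 FPKM and the histone methyltransferase EZH2 from 8.07 to 3.42 FPKM. The histone deacetylase HDAC5 rose from 3.37 to 8.87 FPKM. Nuclear pore and import genes fell in 24 of 33. NUP210, a membrane protein of the pore, was at 40.5, 39.6 and 40.7 FPKM without the drug and 6.98, 5.97 and 7.15 FPKM with it, and the import adaptor KPNA4 rose from 10.9 to 18.7 FPKM.

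RNAs of growth factor signalling genes changed at several levels with mixed signs. Among immediate-early factors 10 of 16 rose and 4 fell. Against the loss of EGR1 and FOS, the orphan receptors NR4A2 and NR4A1 rose from 0.733 to 11.8 FPKM and from 4.56 to 29 FPKM, IER3 was at 64.1, 64.6 and 68.0 FPKM without the drug and 418, 451 and 499 FPKM with it, FOSL1 rose from 6.61 to 26.3 FPKM and JUND, named outside the rule, from 48.0 to 153 FPKM. The serum response element, known by the name CArG box, drives both EGR1 and FOS in the textbook case. The EGR1 window (chr5:138465370-138465429 on the plus strand) holds CArG boxes, in capitals. Promoters with such a box made up 2 of 13 in the immediate-early list and 0.937% of all.
EGR1: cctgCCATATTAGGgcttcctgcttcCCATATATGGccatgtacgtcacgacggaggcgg

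ERK feedback genes and ERK-induced genes rose in 14 of 17 and fell in 3. The phosphatase DUSP1 was at 247, 236 and 260.5 FPKM without the drug and 939, 1029.8 and 1201 FPKM with it, and PHLDA1 rose from 32.5 to 148 FPKM. DUSP6, the cytoplasmic ERK phosphatase, fell from 3.38 to 1.54 FPKM, and SPRED1, which holds RAS inactive through neurofibromin, from 4.19 to 2.22 FPKM. In the EGF family 5 of 9 rose and 4 fell (median -0.10 to 0.29 over the 4 scalings). EGFR, the receptor, was at 11.3, 15.0 and 13.6 FPKM without the drug and 2.86, 3.09 and 2.59 FPKM with it, while its ligands HBEGF and EREG rose from 1.26 to 10.7 FPKM and from 16.8 to 57.6 FPKM.

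Insulin and IGF genes showed no common direction, with 10 higher and 9 lower of 24 (median -0.14 to 0.21, with 7 to 12 higher and 7 to 13 lower, over the 4 scalings). The adaptor IRS2 was at 3.79, 3.90 and 3.72 FPKM without the drug and 16.8, 17.8 and 19.1 FPKM with it, its relative IRS1 fell from 18.3 to 8.15 FPKM and the mTORC1 activator RHEB rose from 10.0 to 19.8 FPKM. In a list of mTORC1 regulators, among them stress-induced inhibitors, 8 of 11 rose. DDIT4 (REDD1) was at 92.5, 85.9 and 92.9 FPKM without the drug and 379, 389 and 416 FPKM with it, SESN1 rose from 2.03 to 7.42 FPKM, SESN2 from 7.34 to 14.3 FPKM and FLCN from 2.71 to 9.76 FPKM, and CASTOR2, a relative of the arginine sensor CASTOR1, fell from 7.30 to 2.90 FPKM. Of 12 AMPK subunits and upstream kinases 4 rose and 3 fell (median -0.11 to 0.24, with 3 to 5 higher and 3 to 6 lower, over the 4 scalings), with PRKAA1, a catalytic subunit, lower, at 7.40 against 11.7 FPKM and PRKAB2 higher, at 13.3 against 6.34 FPKM.

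TGF-beta genes were lower in 10 and higher in 5 of 17 (2 to 7 higher and 10 to 10 lower over the 4 scalings). PMEPA1, a target that limits the pathway, fell from 48.3 to 14.1 FPKM, the receptor TGFBR2 from 37.2 to 12.3 FPKM, and the ligand TGFB1 rose from 64.4 to 116 FPKM. YAP and TEAD targets split evenly at 6 and 6 of 14 (median -0.20 to 0.22 over the 4 scalings), with AJUBA lower, at 3.40 against 10.2 FPKM and the YAP kinase LATS2 higher, at 22.1 against 6.57 FPKM. In a list of HES and ID repressors and Notch genes 9 of 13 rose. HES4 was at 2.95, 3.39 and 3.39 FPKM without the drug and 45.2, 61.1 and 68.0 FPKM with it, HES1 rose from 12.8 to 36.5 FPKM and ID2 from 11.9 to 29.4 FPKM.

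Kruppel-like factors, zinc finger regulators of growth and differentiation, rose in 9 of 12 at a median of 1.19, the highest median of the 62 lists as deposited. KLF16 rose from 12.4 to 60.9 FPKM, KLF6 from 6.41 to 31.8 FPKM and KLF2 from 5.96 to 24.0 FPKM. In the MYC and MAX network 4 of 9 rose and 4 fell (median -0.24 to 0.05 over the 4 scalings). MYC itself was at 0.667, 0.665 and 7.80 FPKM without the drug and 20.7, 20.7 and 26.2 FPKM with it (log2 fold change 3.01, SE 0.82; limma, adjusted p = 0.00641), and no treated library overlapped. Its untreated level rests on the third library, without which the mean was 0.666 in place of 3.04 FPKM and the fold 33.8 in place of 7.40. Whether the low or the high value is due to the quantification was not tested. The MAX partner MNT rose from 5.59 to 24.0 FPKM. MXI1, another, was at 1.44, 3.97 and 1.73 FPKM without the drug and 7.22, 10.8 and 4.24 FPKM with it, and without the second untreated library its rise was 4.69-fold in place of 3.12-fold. Of the MondoA targets only 2 passed the filter on low values, with ARRDC2 higher, at 11.1 against 5.29 FPKM and ARRDC3 lower, at 3.27 against 7.30 FPKM (median -0.26 to 0.13 over the 4 scalings). TMEM158, a membrane protein induced by RAS, was at 1.94, 2.11 and 2.45 FPKM without the drug and 33.7, 38.6 and 40.7 FPKM with it.

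Circadian clock genes rose in 11 of 15, at a median of 0.67. The clock couples an activator pair, BMAL1 (ARNTL) with CLOCK, to repressors that they induce. NR1D1 (REV-ERB alpha), which represses ARNTL, was at 7.94, 7.92 and 8.39 FPKM without the drug and 91.6, 97.5 and 105 FPKM with it. The output factor DBP was at 1.62, 1.61 and 1.71 FPKM without the drug and 16.4, 16.1 and 17.3 FPKM with it, the repressor PER1 at 1.71, 1.47 and 1.60 FPKM without the drug and 15.9, 15.5 and 15.5 FPKM with it, and NFIL3, which opposes DBP at the same sites, rose from 10.6 to 54.3 FPKM. The E-box CACGTG, through which CLOCK acts, stood in 3 of 13 clock promoters and in 9.25% of all. ARNTL2 fell from 10.7 to 1.90 FPKM. The libraries of a group carry no sampling time in the labels, so a phase cannot be read from them.

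Genes of the integrated stress response were higher. Kinases that sense amino acid loss, ER stress or mitochondrial distress phosphorylate eIF2 alpha, which lowers translation and raises ATF4 and CHOP (DDIT3). Of 20 tested targets 17 rose and 3 fell, at a median of 1.16. DDIT3 was at 1.77, 1.72 and 1.66 FPKM without the drug and 33.6, 36.1 and 32.0 FPKM with it, PPP1R15A (GADD34), the phosphatase subunit that reverses the mark, at 23.2, 21.2 and 23.1 FPKM without the drug and 144, 168 and 194 FPKM with it, and ATF4 at 86.8, 81.0 and 79.3 FPKM without the drug and 237, 242 and 253 FPKM with it. The asparagine synthetase ASNS rose from 10.3 to 23.5 FPKM and the pseudokinase TRIB3 from 10.1 to 34.4 FPKM. The 3 fallen members are known ATF4 targets too. The cystine carrier SLC7A11 fell from 30.4 to 11.3 FPKM, the factor ATF5 from 6.08 to 2.69 FPKM and CTH, which makes cysteine, from 1.92 to 1.04 FPKM. The composite ATF4 and CHOP element, TGATGNAA, was in 2 of 17 promoters of the list and 1.23% of all. In ASNS (chr7:97872443-97872502 on the minus strand) it is in capitals.
ASNS: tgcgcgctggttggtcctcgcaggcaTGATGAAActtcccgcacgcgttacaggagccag

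The genes that start the response did not move together. Of 13 eIF2 alpha kinases, phosphatase subunits, eIF2B subunits and DELE1 pathway genes, 4 rose and 6 fell (median -0.27 to 0.09 over the 4 scalings). PPP1R15B, the constitutive phosphatase subunit, was at 20.9, 22.8 and 21.2 FPKM without the drug and 120.1, 125 and 126 FPKM with it. OMA1, the inner membrane protease that cuts DELE1, fell from 2.56 to 0.624 FPKM, and DELE1, the messenger from mitochondria to the kinase HRI, rose from 6.78 to 10.1 FPKM.

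Genes of the ER stress response had mixed signs, as 13 of 24 rose and 7 fell (median -0.09 to 0.33, with 8 to 14 higher and 6 to 11 lower, over the 4 scalings). HSPA5 (BiP), the main ER chaperone, was at 124, 124 and 119 FPKM without the drug and 493, 512 and 563 FPKM with it. DNAJB9 rose from 5.22 to 29.1 FPKM and XBP1, the factor spliced by IRE1, from 4.89 to 21.3 FPKM. Heat shock genes split at 8 and 8 of 22 (median -0.26 to 0.19, with 6 to 10 higher and 5 to 12 lower, over the 4 scalings). HSP90AA1 fell from 142 to 57.4 FPKM, the cochaperone DNAJB4 from 5.42 to 1.02 FPKM, and HSPB8 rose from 3.56 to 10.0 FPKM. The inducible HSPA1A was at 52.4, 49.7 and 52.9 FPKM without the drug and 23.8, 31.2 and 55.5 FPKM with it, with the third treated library above all untreated ones. Its call as lower was lost in most other settings, and it shares reads with the near-identical HSPA1B.

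The death effector BBC3 (PUMA) was at 5.79, 5.35 and 5.54 FPKM without the drug and 48.4, 53.4 and 51.9 FPKM with it, GADD45A at 6.74, 7.06 and 7.52 FPKM without the drug and 54.5, 58.3 and 58.0 FPKM with it, PLK3 rose from 1.77 to 13.1 FPKM and the ubiquitin ligase MDM2 from 4.29 to 8.16 FPKM. In the BCL2 family 7 of 12 rose and 3 fell (7 to 7 higher and 0 to 3 lower over the 4 scalings), with the pore former BAK1 higher, at 16.3 against 6.63 FPKM and the protective MCL1 higher, at 57.2 against 32.3 FPKM. NF-kB subunits, inhibitors and outputs rose in 13 of 20 and fell in 5. PTGS2 (COX-2) was at 2.34, 2.28 and 2.28 FPKM without the drug and 30.4, 32.8 and 36.9 FPKM with it, RELB rose from 2.08 to 15.5 FPKM and BIRC3 from 2.67 to 15.5 FPKM, whereas the chemokines CXCL1 and CCL2 fell from 14.3 to 2.67 FPKM and from 4.75 to 1.06 FPKM. IRAK2, a kinase of Toll-like receptor signalling, was at 3.67, 3.57 and 3.48 FPKM without the drug and 41.1, 39.7 and 38.2 FPKM with it. Interferon genes had no common sign, at 9 higher and 10 lower of 22 (median -0.26 to 0.03 over the 4 scalings), with TAP1 higher, at 19.1 against 7.39 FPKM and OAS3 lower, at 5.43 against 15.2 FPKM.

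Hypoxia-inducible factors and targets rose in 10 of 19 and fell in 3 (7 to 10 higher and 1 to 5 lower over the 4 scalings). EPAS1 (HIF-2 alpha) rose from 10.5 to 37.9 FPKM, HIF1A from 29.7 to 63.3 FPKM and VEGFA from 5.13 to 15.5 FPKM, while the oxygen sensor EGLN1 fell from 16.6 to 8.88 FPKM.

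Antioxidant genes were more often lower than higher. NRF2, the main activator of these genes, is known to be constantly active in KEAP1-deficient A549 cells. Of 27 targets 15 fell and 8 rose (55.6% and 29.6%, against 43.3% and 31.3% of all genes). ABCC2, an exporter of conjugates, was at 111, 116 and 118 FPKM without the drug and 37.6, 33.9 and 34.8 FPKM with it, GCLM of glutathione synthesis fell from 20.7 to 6.10 FPKM, PRDX1 from 312 to 133 FPKM and AKR1B10 from 1424 to 783 FPKM, while AKR1C1 rose from 36.8 to 72.6 FPKM. The summed level of the list still went up, from 10296 to 14417 FPKM. Its most abundant member, ferritin light chain (FTL), was at 5417, 6414 and 6283 FPKM without the drug and 10249.7, 12143 and 10457 FPKM with it. FTL has processed copies, and reads on them may be split. Glutathione and ferroptosis genes were lower in 13 and higher in 8 of 25 (52.0% and 32.0%), near the shares of all genes. CHAC2 was lower, at 2.00 against 9.38 FPKM. Manganese superoxide dismutase SOD2 was higher, at 6.22 against 1.21 FPKM, and so was the lipid peroxide reductase GPX4, at 42.2 against 16.6 FPKM. Iron and heme genes fell in 16 of 22. Ferrochelatase FECH, which inserts iron into heme, fell from 7.87 to 1.90 FPKM, the iron sensor IREB2 from 12.3 to 4.13 FPKM, and the scaffold ISCU rose from 5.69 to 12.4 FPKM.

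Glycolytic genes had no common direction, with 9 lower and 5 higher of 22 (2 to 7 higher and 7 to 16 lower over the 4 scalings). The glucose carrier SLC2A3 was at 5.93, 6.47 and 6.39 FPKM without the drug and 24.4, 16.9 and 21 FPKM with it and SLC2A1 rose from 10.6 to 17.3 FPKM. That call was lost when mitochondrial genes were left out of the totals (0.41; limma, adjusted p = 0.0940) and without the second untreated library (0.58; limma, adjusted p = 0.0511). PGK1, PGAM1 and ENO1 of the later steps of glycolysis fell from 109 to 47.5 FPKM, from 90.2 to 41.2 FPKM and from 597 to 324 FPKM. In the pentose phosphate pathway 3 of 7 fell and 2 rose, with TALDO1 lower, at 41.4 against 65.3 FPKM and TKT higher, at 244 against 145 FPKM.

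Purine and pyrimidine synthesis genes fell in 15 of 24 and rose in 3. PFAS, of purine synthesis, was at 11.9, 11.5 and 11.2 FPKM without the drug and 1.50, 1.59 and 1.56 FPKM with it, CAD, which starts pyrimidine synthesis, fell from 22.5 to 9.18 FPKM, and DHODH, which passes electrons to the respiratory chain, from 1.73 to 0.624 FPKM. Serine and folate genes split at 6 and 6 of 12 (2 to 6 higher and 6 to 6 lower over the 4 scalings). MTHFD2, the mitochondrial folate enzyme and an ATF4 target, was at 24.6, 23.6 and 22.4 FPKM without the drug and 69.4, 78.1 and 83.6 FPKM with it, whereas PSAT1 and SHMT1 fell from 102 to 51.6 FPKM and from 8.45 to 2.38 FPKM. Amino acid transporters fell in 8 of 13 and rose in 1, SLC3A2, the shared heavy chain, from 22.6 to 40.1 FPKM. Its partner SLC7A5 fell from 221 to 111 FPKM. Of 20 aminoacyl-tRNA synthetases 7 rose and 10 fell (median -0.39 to 0.04, with 6 to 8 higher and 7 to 13 lower, over the 4 scalings). GARS was higher, at 62.3 against 25.7 FPKM, and FARSB lower, at 10.7 against 28.2 FPKM.

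Cholesterol synthesis and uptake genes rose in 14 of 24 and fell in 5 (13 to 15 higher and 4 to 8 lower over the 4 scalings). MSMO1 was at 7.24, 7.52 and 8.06 FPKM without the drug and 34.4, 37.9 and 39.3 FPKM with it, the sensor INSIG1 rose from 2.58 to 11.4 FPKM and the regulator SREBF2 from 9.89 to 22.8 FPKM. GGPS1, which draws isoprenoids away from sterols, fell from 3.77 to 1.27 FPKM. Fatty acid synthesis genes split at 7 and 8 of 18 (median -0.27 to 0.17, with 3 to 9 higher and 6 to 9 lower, over the 4 scalings). The desaturase SCD was at 109, 109.9 and 105 FPKM without the drug and 363, 390.4 and 412 FPKM with it. ACLY and FADS2 fell from 115 to 50.3 FPKM and from 7.27 to 2.93 FPKM. Fatty acid oxidation genes fell in 10 of 18 and rose in 5 (0 to 7 higher and 7 to 15 lower over the 4 scalings). Here too the smallest count of lower genes is near the share of all genes under that scaling. ACADM was lower, at 1.40 against 3.81 FPKM. Glycerol-3-phosphate and glycerolipid genes fell in 8 of 16 and rose in 4 (1 to 5 higher and 8 to 10 lower over the 4 scalings), near the shares of all genes. AGPAT5 was lower, at 2.27 against 5.87 FPKM, and the glycerol channel AQP3 higher, at 5.83 against 2.72 FPKM. In NAD metabolism 5 of 10 fell and 3 rose, near the shares of all genes. The methyltransferase NNMT fell from 31.1 to 10.6 FPKM, PARP1 from 31.1 to 11.5 FPKM, and the deacetylase SIRT1 rose from 4.84 to 10.0 FPKM.

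Cytosolic ribosomal proteins rose in 74 of 79 against a background of 31.3%, at a median of 0.62, and their share of all FPKM went from 2.87% ± 0.0515 to 4.71% ± 0.171 (mean ± SD, n = 3 each). RPS27 was at 50.6, 52.2 and 50.3 FPKM without the drug and 256, 287 and 269.5 FPKM with it, RPL37A rose from 21.4 to 63.1 FPKM and RPS6 from 302 to 447 FPKM, and RPL6 fell from 94.4 to 77.1 FPKM. Over the 4 scalings the count of higher genes ran from 57 to 74. These genes have many processed pseudogenes, and the table lists large values for some of them. RPL39P3 rose from 1854 to 4160.3 FPKM, RPL13AP5 from 2330.5 to 4092 FPKM and EEF1A1P5 from 2985 to 5897 FPKM, the latter above its parent EEF1A1 at 207 and 359 FPKM. Reads of parents and copies cannot be told apart, and single ribosomal protein values are uncertain. Translation factors rose in 24 of 41 and fell in 12 (15 to 27 higher and 10 to 16 lower over the 4 scalings), where EIF1 rose from 27.4 to 84.3 FPKM, the elongation factor EEF2 from 585 to 1114 FPKM and the cap-binding inhibitor EIF4EBP1 from 85.2 to 199 FPKM, and EIF4EBP2 fell from 10.8 to 4.36 FPKM.

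Genes for making ribosomes did not follow those of the ribosomal proteins. Ribosome biogenesis genes were higher in 18 and lower in 23 of 50 (median -0.33 to 0.09, with 9 to 22 higher and 20 to 27 lower, over the 4 scalings). POLR1A, the large subunit of RNA polymerase I, was at 10.5, 10.1 and 9.96 FPKM without the drug and 2.78, 2.21 and 1.71 FPKM with it, NOP56 of the box C/D particles fell from 14.0 to 4.23 FPKM, the helicase DDX21 rose from 41.5 to 76.5 FPKM and TAF1D, which hosts snoRNAs, from 2.97 to 14.4 FPKM. Proteasome subunits fell in 20 of 33 (4 to 9 higher and 13 to 24 lower over the 4 scalings). The smallest count of lower genes is near the share of all genes under that scaling. PSMD1 was lower, at 8.12 against 19.9 FPKM, and PSMA6 higher, at 13.6 against 7.24 FPKM. Chaperonin and prefoldin genes split at 4 and 4 of 14 (median -0.18 to 0.25, with 2 to 8 higher and 3 to 8 lower, over the 4 scalings), with PFDN2 higher, at 177 against 70.0 FPKM and PFDN6 lower, at 3.97 against 8.98 FPKM. Splicing factors fell in 27 of 50 and rose in 12 (9 to 15 higher and 24 to 37 lower over the 4 scalings). HNRNPA2B1 was at 45.2, 46.6 and 44.8 FPKM without the drug and 10.9, 10.7 and 12.6 FPKM with it, SRSF7 fell from 10.8 to 3.77 FPKM and the splicing kinase CLK1 rose from 2.72 to 15.0 FPKM. Lysosome and autophagy genes rose in 23 of 46 and fell in 12 (16 to 29 higher and 12 to 18 lower over the 4 scalings). Cathepsin B (CTSB) rose from 13.9 to 41.7 FPKM, the regulator TFE3 from 14.7 to 43.6 FPKM and the receptor SQSTM1 from 48.3 to 105 FPKM. GABARAPL1, which coats autophagosomes, was at 2.97, 1.12 and 1.16 FPKM without the drug and 12.5, 9.47 and 14.4 FPKM with it, and without the first untreated library its rise was 10.6-fold in place of 6.93-fold.

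Junction, keratin and mesenchymal genes had no common sign. Of 15 epithelial genes 7 rose and 5 fell (median -0.25 to 0.16, with 5 to 8 higher and 4 to 8 lower, over the 4 scalings). E-cadherin (CDH1) was at 9.24, 9.29 and 9.25 FPKM without the drug and 2.26, 2.49 and 2.94 FPKM with it, TJP1 of tight junctions fell from 16.9 to 5.11 FPKM, and KRT81 and CLDN12 rose from 1211 to 2067 FPKM and from 3.18 to 9.16 FPKM. Of 16 mesenchymal genes 7 rose and 3 fell (median -0.13 to 0.25, with 5 to 10 higher and 2 to 6 lower, over the 4 scalings), with SNAI1, a repressor of CDH1, at 4.66, 3.21 and 4.42 FPKM without the drug and 21.7, 25.1 and 28.5 FPKM with it. The matrix protein FN1 rose from 22.4 to 53.2 FPKM and TWIST1 from 3.32 to 8.23 FPKM, and N-cadherin (CDH2) fell from 9.55 to 4.24 FPKM. Matrix genes fell in 17 of 22. COL5A1 was at 17.9, 15.6 and 17.2 FPKM without the drug and 1.41, 1.56 and 1.81 FPKM with it, the basement membrane chains COL4A1 and COL4A2 fell from 43.3 to 13.9 FPKM and from 50.4 to 18.4 FPKM, THBS1 from 5.87 to 0.948 FPKM, and LAMB1 rose from 61.2 to 103 FPKM. Actin genes were lower in 12 and higher in 10 of 31 (4 to 12 higher and 7 to 18 lower over the 4 scalings), with MYH10 lower, at 2.20 against 9.05 FPKM and zyxin (ZYX) higher, at 32.2 against 13.0 FPKM.

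**Figure D3:**
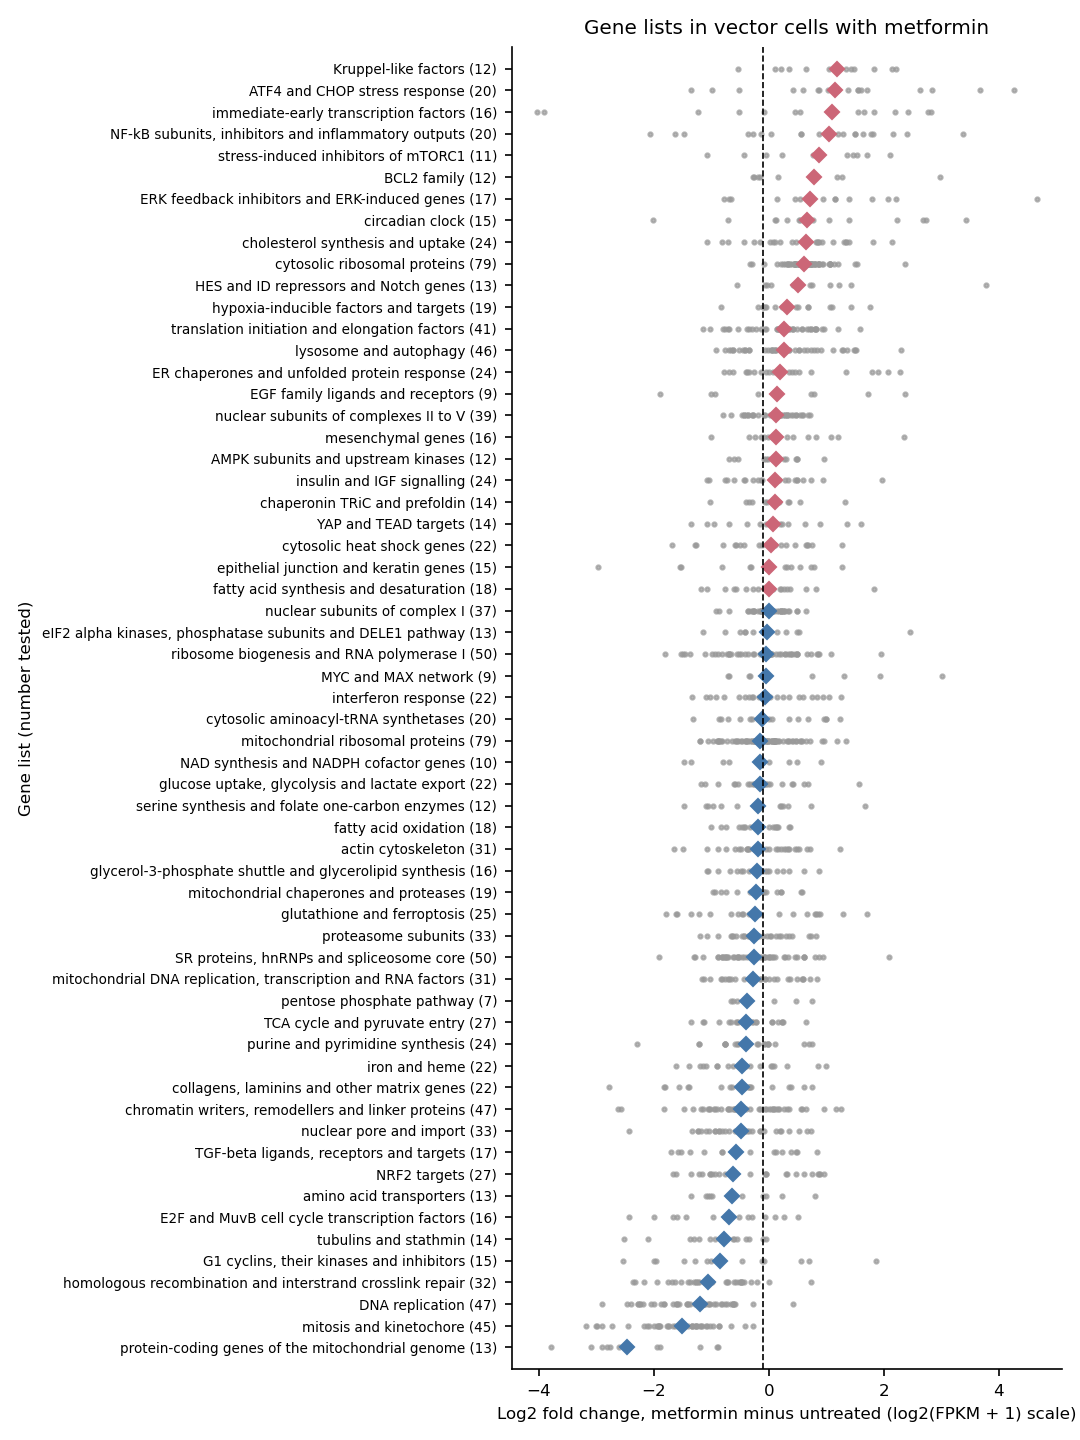
Log2 fold change (x, metformin minus untreated vector cells) of the tested members of each gene list with at least 5 of them, except 1 list that is not reported (y, number tested in brackets), with grey dots for genes, diamonds for list medians (red above 0, blue below) and a dashed line at the median of all tested genes (-0.10). Kruppel-like factors and the ATF4 and CHOP list lie at the top, and mitosis and the messenger RNAs of the mitochondrial genome at the bottom. For 18 of the 62 lists, all of them close to the line, the sign of the median turned with the scaling.

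Some genes passed from near absence to clear presence or back. With a mean under 0.5 FPKM in one group and at least 5 in the other, 17 genes were switched on and 21 off, of which 2 in each direction were not called. Among those off with the drug, PPP1R10, a nuclear targeting subunit of protein phosphatase 1, was at 8.75, 9.64 and 10.5 FPKM without the drug and 0.597, 0.309 and 0.330 FPKM with it. ZC3H4, which ends unproductive transcription, fell from 5.40 to 0.170 FPKM and RPP25, of the enzymes RNase P and MRP, from 6.89 to 0.302 FPKM. The long noncoding RNAs NKILA, an NF-kB inhibitor, and TMPO-AS1 fell from 6.78 to 0.315 FPKM and from 5.86 to 0.179 FPKM. Most genes switched on were short or pseudogene entries, for which few reads give high FPKM. TGFB2-OT1, a noncoding transcript at the end of TGFB2, was at 0.221, 0.208 and 0.330 FPKM without the drug and 12.2, 11.9 and 10.2 FPKM with it. Among long noncoding RNAs PCBP2-OT1 rose from 0.630 to 13.4 FPKM, ZFAS1 from 32.1 to 138 FPKM, LINC01433 from 3.43 to 17.1 FPKM and SNHG7 from 17.2 to 65.3 FPKM, and LINC01836 fell from 8.24 to 0.720 FPKM, FGD5-AS1 from 18.3 to 4.21 FPKM, LINC01137 from 11.3 to 4.0 FPKM and LINC02506 from 10.4 to 3.38 FPKM. The labels state no strand, so reads of a noncoding gene and of a gene that overlaps it on the other strand cannot be told apart.

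The balance of directions varied with features of gene structure, while genes of any size were called in both directions. Protein-coding genes were set in 5 bins of equal size by number of merged exons (GENCODE 29), and their median log2 fold change went from -0.01 in the bin with the fewest exons to -0.34 in that with the most. In the last bin 60.9% were called lower and 20.4% higher, against 38.5% and 37.1% in the first. The same order was seen with the genomic span of the gene, from -0.02 to -0.28, and with exon length, from -0.03 to -0.24. Weakly expressed genes lay lower than strong ones, from -0.30 in the lowest bin to 0.11 in the highest. Exon number, span, length and level are themselves related and were not separated. By chromosome, the 686 protein-coding genes of chromosome 19 had a median of 0.06, with 39.1% higher, against -0.15 and 29.6% for all protein-coding genes, and the 51 zinc finger genes there a median of 0.17. Chromosomes 10 and 13 departed the other way, at medians of -0.32 and -0.29. Small nucleolar RNAs were higher in 60.4% of 149 and processed pseudogenes in 52.6% of 704. Genes are not replicates, and these are descriptions with no test.

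**Figure D4:**
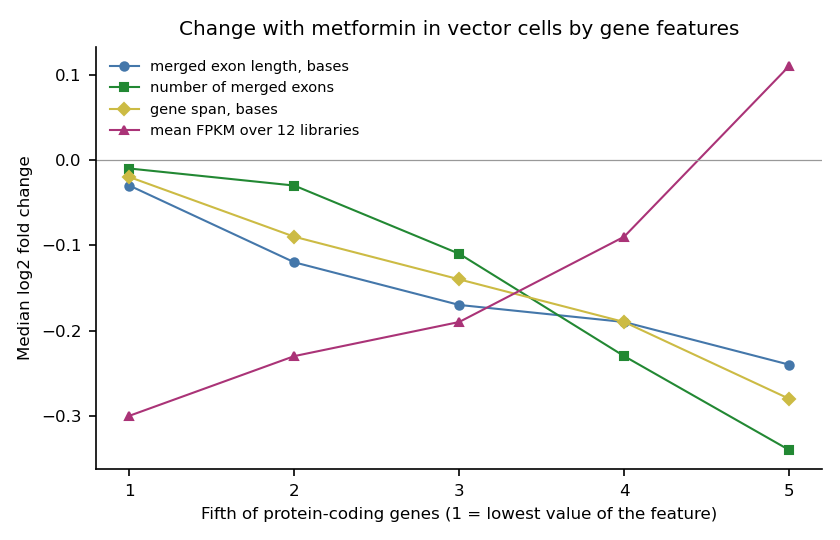
Median log2 fold change with metformin in vector cells (y) of protein-coding genes in 5 bins of equal size (x) by merged exon length, number of merged exons, genomic span and mean level, 1 line for each feature. The lines for the 3 size features run down from near 0, to -0.24, -0.34 and -0.28, and the line for level runs up from -0.30 to 0.11.

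The same drug was given to the GPD1-transduced population, and the change in vector cells was set against it in an interaction test that shares no library between the 2 contrasts. Of all tested genes 45.9% differed (limma interaction, adjusted p under 0.05), and 863 of them by at least 1 log2 unit. The change was the higher one in vector cells for 3384 genes and in GPD1 cells for 2407. This balance moved with the scaling. It turned to 2971 and 3059 under median-ratio scaling and widened to 3805 and 1800 with mitochondrial genes left out of the totals. Of the 863 genes, as deposited, the change was the higher one in vector cells for 716 and in GPD1 cells for 147. Most responses nevertheless had the same sign. Of 1079 genes higher by at least 1 log2 unit in vector cells, 843 were also called higher in GPD1 cells, and of 1432 lower, 1386 were also called lower. Genes called in both with opposite signs numbered 799, of which 603 were higher in vector and lower in GPD1 cells. The 2 populations may differ in more than GPD1, since the labels give 1 population for each lentivirus.

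GDF15 rose by 4.27 log2 units in vector and 4.39 in GPD1 cells (difference -0.12, SE 0.10; limma interaction, adjusted p = 0.365). Larger in vector cells were the falls of FOS, -3.91 against -1.11 (difference -2.80, SE 0.19; limma interaction, adjusted p = 2.0e-06), of COL5A1, -2.79 against -1.16, and of NUP210, -2.43 against -0.80. The basement membrane collagens fell in vector cells and rose in GPD1 cells, from unequal untreated levels for some of them. In vector and GPD1 cells without the drug COL4A1 was at 43.3 and 17.4 FPKM and COL4A2 at 50.4 and 22.9 FPKM. With the drug they were at 13.9 and 22.3 FPKM and at 18.4 and 31.4 FPKM. COL5A1 also started lower in GPD1 cells, at 6.74 against 16.9 FPKM, and COL18A1 was at 50.8 against 56.1 FPKM. How far untreated levels bear on these differences was not tested. COL4A1 went by -1.57 and 0.35 (difference -1.92, SE 0.06; limma interaction, adjusted p = 5.4e-08), COL4A2 by -1.41 and 0.44, COL18A1 by -0.79 and 0.38 and the laminin receptor chain ITGB4 by -0.52 and 0.61. The median of the matrix list was -0.47 in vector and 0.17 in GPD1 cells. PSAT1 turned in the same way, from -0.97 to 0.58.

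The reverse was seen for KLF2, up by 1.84 in vector and at -0.52 in GPD1 cells (difference 2.37, SE 0.10; limma interaction, adjusted p = 2.3e-07), for BTG2, an antiproliferative gene, at 1.45 and -1.10, for SESN2 at 0.87 and -1.42 and for SIRT1 at 0.91 and -0.65. HSPA1A stood at -0.57 in vector and 3.69 in GPD1 cells, where treated libraries were at 741, 632 and 584 FPKM (difference -4.25, SE 0.32; limma interaction, adjusted p = 3.8e-06). Mitosis genes fell in both, at a median of -1.51 and -1.09, and 30 of 45 differed by the interaction. KIF11 fell by 2.90 and 1.93. FEN1 fell less in vector cells, at -2.90 against -4.08, and so did MT-CO2, at -3.10 against -4.03. The protein-coding genes of the mitochondrial genome had medians of -2.46 and -3.53, and 10 of 13 differed. The most abundant mitochondrial tRNA entries, on the opposite strand, went by -1.97 to -1.55 in vector and by -7.51 to -7.33 in GPD1 cells. MT-RNR2 rose less in vector cells, 0.33 against 0.87. In the stress response DDIT3 rose more in vector cells (3.68 against 2.78), as did HSPA5 (2.08 against 1.08) and TRIB3 (1.71 against 0.16), and PPP1R15A rose less (2.85 against 3.85). MYC gave no call for a difference (difference 1.59, SE 1.16; limma interaction, adjusted p = 0.291). Its treated GPD1 libraries were at 1.18, 18.2 and 1.2 FPKM, and without the second of them the difference was 2.63 (limma interaction, adjusted p = 0.0236).

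**Figure D5:**
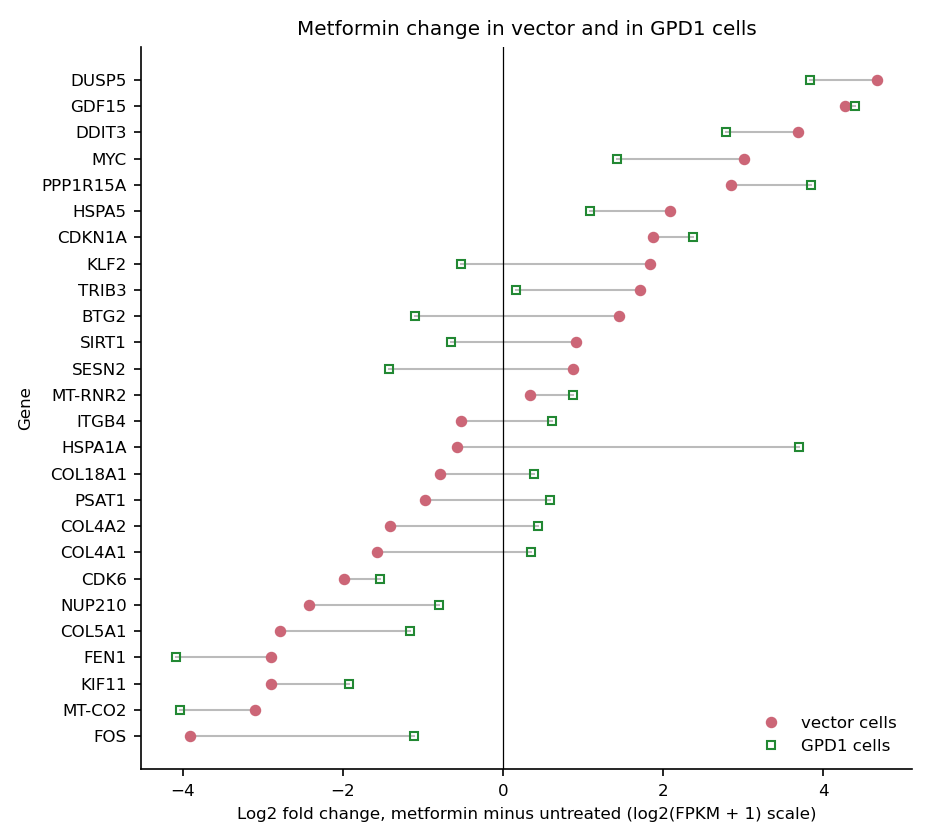
Log2 fold change, metformin minus untreated (x), of 26 genes (y) in vector cells (red circles) and GPD1 cells (green squares), joined by grey lines. Signs are shared for DUSP5 and GDF15, and they are opposite for KLF2, BTG2, SESN2, HSPA1A and the collagens COL4A1, COL4A2 and COL18A1.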

How the data were processed

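RNA of 12 A549 libraries (4 groups of 3) was analysed. The authors deposited values scaled to gene length and depth, taken here as FPKM although the header names no unit, since low values times exon length were whole multiples of 1 step per library (within 0.02) for 65.0% to 69.8% of genes, and RPKM cannot be told apart from it. The submitters' processing notes name HISAT2 2.1.0, CASAVA 1.8, edgeR (without a version) and GRCh38. Per the labels' protocols an NEBNext Ultra kit was used, with no strand stated. Which program computed them, and from which annotation, is not given in the sources used here. GENCODE 29, used for lengths, gave the same locus for 97.2% of genes.

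Genes reaching the filter of 1 FPKM were fitted on log2(FPKM + 1) with limma 3.58.1 in R 4.3.3, using 4 group means and an intensity trend, and p-values were adjusted over all tested genes (Benjamini and Hochberg, threshold 0.05). The code was tested on simulated data. The members and the 62 gene lists were chosen with earlier results of these data known, so lists carry counts and medians and no test. The rule for naming took GPD1, the 10 largest changes per direction among called protein-coding genes of at least 5 FPKM without overlap, the anchors of each list and up to 5 called members per direction, the 5 largest differences in FPKM, up to 6 genes per direction passing between under 0.5 and at least 5 FPKM, and 4 long noncoding RNAs per direction. The 35 genes outside it were chosen after their values were seen, and include MT-RNR1, MT-ND2, MT-ND4, MT-ND4L, MT-ND6, the mitochondrial tRNAs, TOP2A, JUND, COL18A1, ITGB4 and those under other observations. Some genes the rule named are not reported here. Alternatives were 3 scalings, no filter, a pseudocount of 0.1, a replicate block, protein-coding genes alone, removal of a length trend, the vector groups alone, a minimum change and each library left out.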

Additional observations from a re-analysis of the deposited data

Results flagged for a closer look

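Whether the metformin response differed between vector and GPD1 cells was tested by the interaction term of the limma model, and 5791 genes passed. Among the genes named for this comparison, the log2 fold change in vector cells minus that in GPD1 cells was above 0 for BTG2 (2.55), KLF2 (2.37), SESN2 (2.29), SIRT1 (1.56), TRIB3 (1.54), FEN1 (1.18), HSPA5 (1.01), MT-CO2 (0.94), DDIT3 (0.90) and DUSP5 (0.84). It was below 0 for HSPA1A (-4.25), FOS (-2.80), COL4A1 (-1.92), COL4A2 (-1.85), COL5A1 (-1.63), NUP210 (-1.63), PSAT1 (-1.55), COL18A1 (-1.18), ITGB4 (-1.13), PPP1R15A (-1.01), KIF11 (-0.97), MT-RNR2 (-0.54), CDKN1A (-0.50) and CDK6 (-0.45). For FEN1 and MT-CO2 a value above 0 means a smaller fall in vector cells. No formal test for stray libraries was run on groups of 3, and each library was left out in turn instead.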

How the results depend on the processing

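The number of genes called in vector cells lay between 9280 and 9663 under the 3 scalings. It was 9305 with a pseudocount of 0.1, 9417 with the length trend removed, 7831 with protein-coding genes alone and 9124 with the vector groups alone. With no filter on low values 14315 genes were called and 9007 of them were lower, since more genes were tested. At an absolute log2 change of at least 1 the counts were 2511 called, 1079 higher and 1432 lower, and for the interaction 863, 716 and 147. Leaving out 1 library at a time gave 8977 to 9387 called genes, 3745 to 3952 higher and 5185 to 5448 lower, and for the interaction 5359 to 5766, 3162 to 3450 and 2168 to 2319. The balance of the interaction calls depended on the setting. It was 2971 higher and 3059 lower with median-ratio scaling and 2694 and 3358 with the length trend removed. With mitochondrial genes left out of the totals it was 3805 and 1800. The replicate numbers did not pair the libraries, as same-numbered vector libraries deviated with correlations of 0.01, 0.06 and -0.01, and with the replicate block 9333 genes were called in vector cells and 5643 for the interaction. With the length trend removed, ABCC3 turned to 0.15 and was called, and the median of the NAD synthesis list, taken relative to all genes, to 0.04. The cause was not tested. HSPA1A (log2 change -0.59 to -0.30), MT-CYB (-3.82 to -3.64) and MT-TF (-0.56 to -0.34) lost their calls in several settings. Among the other genes named with values, calls lost were those given beside CDT1, MRPL34, MT-RNR1, MT-RNR2 and SLC2A1, where MT-RNR2 also lost its interaction call with no filter (adjusted p = 0.0819, limma). Depth overlapped between the groups, and genes under the filter were not tested.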

Other observations

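Some gene families outside the lists had more calls in 1 direction than in the other. They were chosen after their values were seen, so they are descriptions. Small nucleolar RNAs guide the modification of ribosomal RNA, and most are cut from introns of host genes. Of 69 tested C/D box snoRNAs 41 were called higher and 1 lower, and of 54 H/ACA box snoRNAs 33 higher and 3 lower. Of 22 tested noncoding host genes 15 rose and 5 fell. GAS5 rose from 12.2 to 40 FPKM, SNHG6 from 21.5 to 55.9 FPKM and EPB41L4A-AS1 from 2.78 to 11.1 FPKM, and SNHG14 fell from 2.56 to 0.345 FPKM. Mature snoRNAs lack poly(A) tails, so these values are not amounts of mature snoRNA.

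Kinesins, motors on microtubules, fell in 25 of 29 and rose in 4. KIF4A, a motor on mitotic chromosomes, fell from 25.0 to 4.75 FPKM, and KIF13B, which carries cargo outside mitosis, from 4.82 to 2.54 FPKM. ABC transporters fell in 19 of 22 and rose in 1, with ABCC1, an exporter of glutathione conjugates, lower from 48.9 to 24.2 FPKM and ABCC3 at 42.7, 40 and 43.7 FPKM without the drug and 39.7, 39.9 and 43.5 FPKM with it, not called (called lower, -0.33, with mitochondrial genes left out of the totals and higher, 0.15, with the length trend removed; limma, adjusted p = 1.5e-04 and 0.0242). Aldehyde dehydrogenases fell in 9 of 14 and rose in 2. ALDH1A1, among the most abundant messenger RNAs of these cells, was at 2684, 2740.4 and 2769 FPKM without the drug and 1417, 1478 and 1410.4 FPKM with it, while ALDH3A1 was at 309, 281 and 279 FPKM without the drug and 264, 288 and 274 FPKM with it and was not called, except as lower with mitochondrial genes left out of the totals (-0.37; limma, adjusted p = 0.00106).

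All 5 tested BTG and TOB genes, which slow proliferation and speed the removal of poly(A) tails, rose. BTG3 rose from 7.50 to 23.4 FPKM, BTG1 from 32.0 to 70.1 FPKM and BTG2 from 5.76 to 17.6 FPKM. Genes of MHC class I rose in 4 of 5, with HLA-E from 30.9 to 71.2 FPKM and B2M from 10.3 to 16.3 FPKM. Histone genes were lower in 18 and higher in 5 of 29 tested, while their summed level went only from 628 to 590.5 FPKM. H2AFX fell from 62.8 to 14.3 FPKM and H2AFZ from 31.6 to 14.5 FPKM, and the linker histone HIST1H1C rose from 13.3 to 25.9 FPKM. Most histone messenger RNAs carry no poly(A) tail, so a polyadenylated library sees only part of them.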
